A study of Mus musculus with 10 samples.

Results

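The comparison set Tet3 knockout (Tet3 KO) against wild-type (WT) mouse embryonic stem (ES) cells after 10 days of neural differentiation, with 1 library on each side. Genes were taken in where the table of RPKM values (read numbers divided by the length of the transcript and the size of the library) listed 1 RPKM or more in either library, which kept 12445 of 21937 genes. Both had a C57BL/6 background. The Tet3 KO cells, made by the submitters from mice with floxed Tet3 alleles, had lost the floxed exon after transient Cre expression. The labels do not say how many lines or clones of each genotype were used. Both were grown as serum-free floating aggregates (SFEB culture), which leads ES cells towards neuroectoderm, the source of the nervous system. The same culture sampled on day 6 gave another pair of libraries, and Tet3 KO aggregates given Dkk, a secreted Wnt inhibitor, gave another on day 10. In all, 10 libraries were sequenced, including 4 from a culture with serum that is not used here.

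TET3 oxidises 5-methylcytosine in DNA, a step towards loss of the methyl mark. In the early embryo, Wnt and FGF signals together with retinoic acid give cells a posterior identity and switch on the clustered Hox genes, which record position from hindbrain to tail. Serum-free aggregates that lack these signals mostly take on anterior neural fates. Posterior cells that remain uncommitted can still form either spinal cord or paraxial mesoderm, the tissue of somites, muscle and vertebrae.

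Estimated depth was 10900000 reads in the Tet3 KO library and 11300000 in the WT library. Tet3 itself was listed at 14.3 RPKM in Tet3 KO and 10.2 RPKM in WT, and since 1 exon was removed and the value is that of the whole gene, it does not check the genotype. The related enzymes Tet1 (2.33 RPKM in Tet3 KO, 2.47 RPKM in WT) and Tet2 (3.54 RPKM in Tet3 KO, 3.21 RPKM in WT) stood at nearly equal levels. With 1 library a side there is no replicate spread and no test, so every difference below is between single libraries, and the genotype cannot be told apart from the line or the culture. A ratio is the difference in log2(RPKM + 0.5), Tet3 KO minus WT, which understates the change of genes with low values. A gene is called higher or lower at a ratio of at least 1 in size, that is 2-fold. In this comparison 1057 genes were higher in Tet3 KO, 8.49% of those compared, and 246 were lower, 1.98%. The median ratio over all genes was 0.06, and 74.5% of genes differed by less than 1.5-fold. At 4-fold, 260 genes were higher and 38 lower, and at 16-fold 28 were higher and 1 lower. RNA came from whole aggregates, so more cells of a type and more RNA per cell cannot be told apart in any of these values.

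**Figure D1:**
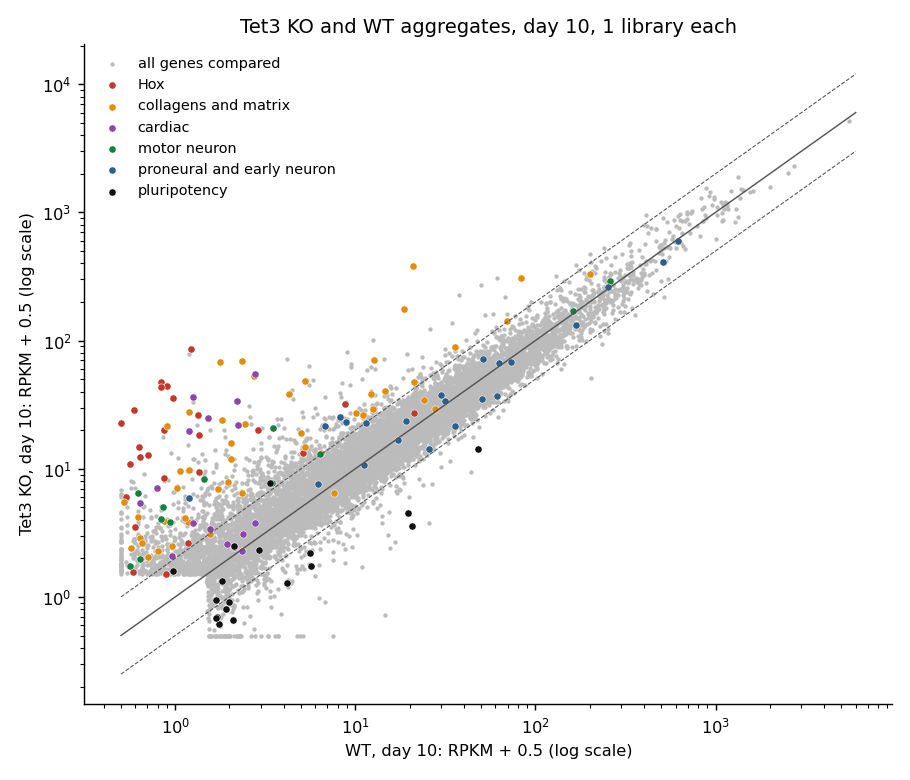
RPKM + 0.5 of 12445 genes in the Tet3 KO library (vertical, log scale) against the WT library (horizontal, log scale) on day 10, with lines at equality and at 2-fold. Most Hox, matrix, cardiac and motor neuron genes lie above the upper line, most pluripotency genes below the lower one, and most early neuron genes along the diagonal.

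Day-10 ratios moved with base composition. Across 5 equal groups of genes ordered by the GC content of their transcripts, the median ratio was -0.24, -0.09, 0.07, 0.21 and 0.38, from the least to the most GC-rich. The share of genes called higher was 3.7% in the least GC-rich group and 14.5% in the most GC-rich one, and the share called lower 3.7% and 1.3%. Between the day-6 libraries the same medians ran only between -0.04 and 0.04. Within WT, day 10 over day 6, they were 0.35, 0.19, 0.08, -0.04 and -0.08, in the same order, while within Tet3 KO they stayed between 0.16 and 0.21. The median transcript GC content was 54.3% for genes higher in Tet3 KO, 47.4% for genes lower and 50.8% for all genes compared. The part of GC content in single differences was not tested. With the median ratio of each GC bin removed, an adjustment chosen after the trend was seen, 911 genes were higher and 220 lower, and 821 of the 1057 and 182 of the 246 genes kept their call. After the same adjustment the median ratio of some lists described below was nearer 0 (insulin-like growth factor axis 1.63 from 1.95, cardiac 1.29 from 1.57, paraxial mesoderm 1.04 from 1.32, immediate early 0.41 from 0.74) and that of forebrain genes farther from it (-1.67 from -1.39).

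**Figure D2:**
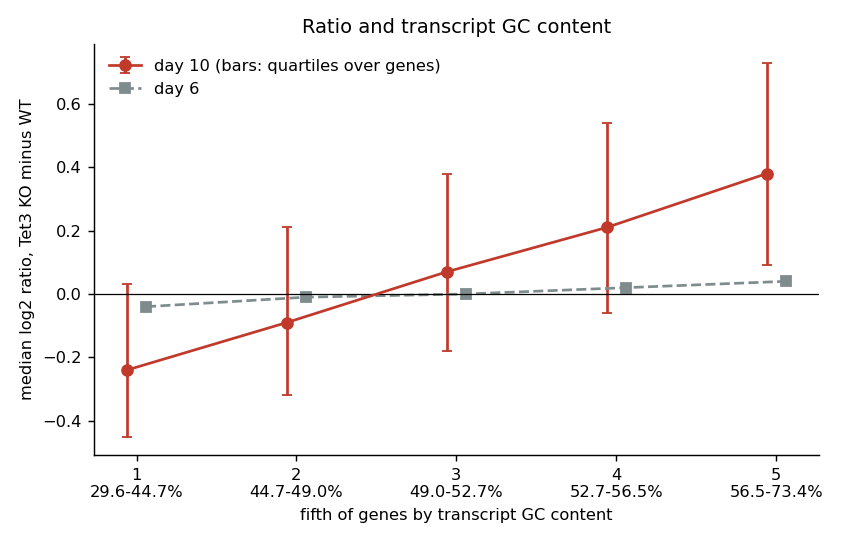
Median log2 ratio of Tet3 KO over WT in 5 equal groups of genes by transcript GC content (horizontal, GC range of each group), on day 10 with quartiles over genes as bars and on day 6. The day-10 medians lie between -0.24 in the least and 0.38 in the most GC-rich group, while those of day 6 stay near 0.

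Hox genes of the trunk set the Tet3 KO aggregates apart most. The mouse has 39 Hox genes in clusters a to d, numbered by paralog group from the head end to the tail end. All 11 genes of groups 5 to 8, which mark the neck and thorax, were higher in Tet3 KO, where their summed level was 283.1 RPKM, against 2.7 RPKM in WT, and no gene of these groups exceeded 0.47 RPKM in WT. The thoracic gene Hoxb9 was highest of all, at 85.5 RPKM in Tet3 KO and 0.72 RPKM in WT, a ratio of 6.14 with a 95% counting interval of the read ratio from 6.24 to 7.58. That interval is on reads with no 0.5 added, so it can lie above the ratio of a gene that is low in WT. Hoxb6 was listed at 46.6 RPKM in Tet3 KO and 0.33 RPKM in WT. Its paralog Hoxc6 had 42.9 RPKM in Tet3 KO and 0.33 RPKM in WT.

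The pattern ended sharply at the tail end of the clusters and not at the head end. Hoxc9 was at 2.98 RPKM in Tet3 KO and 0.10 RPKM in WT, and Hoxa9 was not called, with 1.01 RPKM in Tet3 KO, 0.39 RPKM in WT and a counting interval from -0.62 to 3.37. None of the 12 genes of groups 10 to 13, which mark lumbar, sacral and tail levels, reached 1 RPKM in either library, and their highest values were 0.16 RPKM in Tet3 KO and 0.48 RPKM in WT. At the head end, 10 of the 11 genes of groups 1 to 4 that were compared were still higher in Tet3 KO. These hindbrain genes were present in WT too, with summed levels of 163.8 RPKM in Tet3 KO and 39.5 RPKM in WT. Hoxa2, a hindbrain gene of rhombomeres and neural crest, differed little, with 26.5 RPKM in Tet3 KO and 20.7 RPKM in WT. Hoxb2 was at 31.5 RPKM in Tet3 KO and 8.21 RPKM in WT, while Hoxd4 was at 5.54 RPKM in Tet3 KO and 0.03 RPKM in WT. WT aggregates thus held mainly Hox genes of groups 2 and 3, and Tet3 KO aggregates the series up to group 9.

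**Figure D3:**
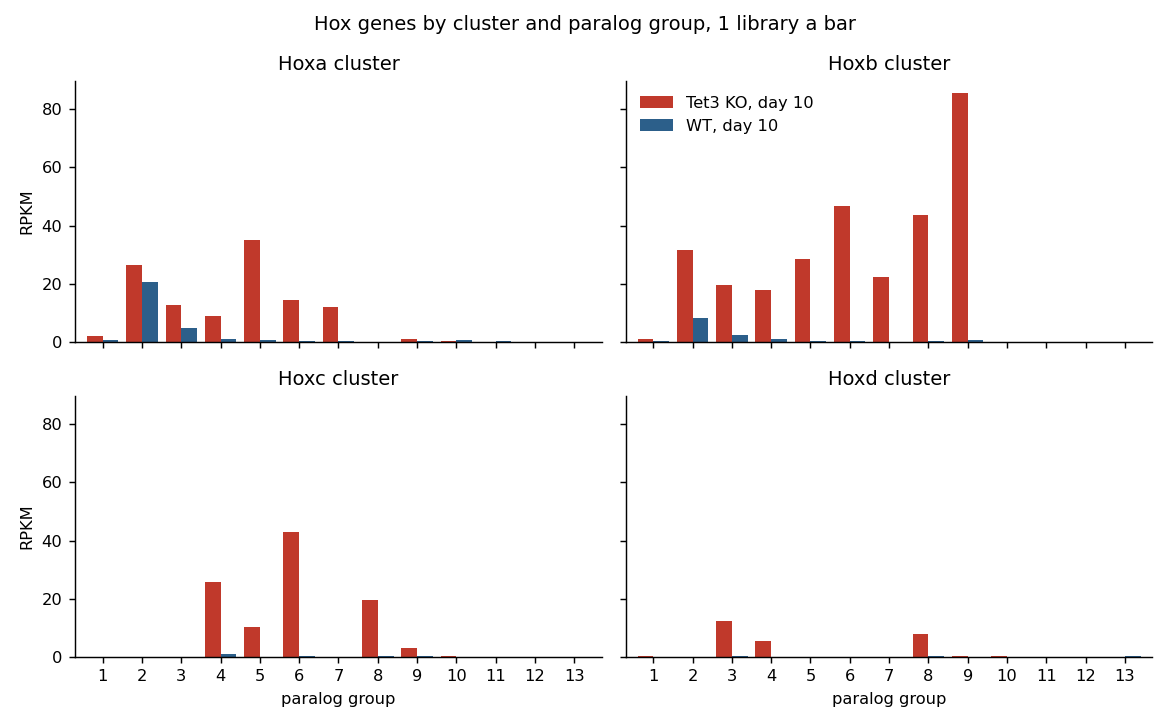
RPKM of the 39 Hox genes on day 10, by cluster (panels) and paralog group (horizontal), in Tet3 KO (red, left bar) and WT (blue, right bar), 1 library a bar. Bars of WT are visible in groups 2 and 3, those of Tet3 KO up to group 9, and none from group 10 on.

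The retinoic acid system, which makes, carries, senses and degrades this signal, was higher in Tet3 KO at the steps of synthesis, uptake and sensing. Of 16 members compared, 8 were higher and 1 lower, with a median ratio of 0.96 (0.76 after the GC adjustment). Synthesis genes came first. Aldh1a2, the main embryonic retinaldehyde dehydrogenase, had 77.7 RPKM in Tet3 KO and 0.70 RPKM in WT. Rdh10, which makes its substrate retinaldehyde, had 24.97 RPKM in Tet3 KO and 7.05 RPKM in WT. For uptake, Stra6, the retinol receptor of the cell surface, had 6.68 RPKM in Tet3 KO and 0.60 RPKM in WT. Among the receptors, Rarb was at 19.5 RPKM in Tet3 KO and 1.36 RPKM in WT, and Rara at 16.2 RPKM in Tet3 KO and 4.81 RPKM in WT. Rarg (2.16 RPKM in Tet3 KO, 1.40 RPKM in WT) and Rxra (16.2 RPKM in Tet3 KO, 10.5 RPKM in WT) were not called. The single member that was lower degrades retinoic acid: Cyp26b1 had 17.1 RPKM in Tet3 KO and 44.7 RPKM in WT. The other degrading enzyme, Cyp26a1, was not called, with 2.41 RPKM in Tet3 KO and 1.58 RPKM in WT.

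Rarb and Cyp26a1 are textbook direct targets of retinoic acid receptors, which bind paired half-sites spaced by 5 bases. In a search of RefSeq promoter windows of 300 bases (GRCm38.p6), 0.10% of 32851 windows held such a pair on either strand, built from half-sites of the form NGNTCA with A or G at the first N and G or T at the other, in the same direction, and Rarb and Cyp26a1 were among them. Their 250 bases before the start are printed to show the pair, in capitals. The first lies on chr14:16575477-16575726, minus strand, where the pair begins 53 bases before the start. The second lies on chr19:37697558-37697807, plus strand, where AGTTCA is repeated on the opposite strand and the pair begins 32 bases before the start. A match is a description of letters and not of binding.
Rarb: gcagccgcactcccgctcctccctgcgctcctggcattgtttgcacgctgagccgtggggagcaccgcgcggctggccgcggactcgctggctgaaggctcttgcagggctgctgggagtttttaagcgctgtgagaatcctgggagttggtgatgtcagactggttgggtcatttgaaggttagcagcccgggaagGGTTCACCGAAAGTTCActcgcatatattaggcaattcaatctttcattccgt
Cyp26a1: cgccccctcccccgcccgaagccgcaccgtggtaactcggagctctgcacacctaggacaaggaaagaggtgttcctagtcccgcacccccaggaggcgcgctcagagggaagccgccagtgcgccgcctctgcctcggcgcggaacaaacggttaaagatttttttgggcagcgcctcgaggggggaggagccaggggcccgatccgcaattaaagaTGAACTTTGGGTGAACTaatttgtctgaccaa
Both promoters hold the same kind of site, and on day 10 the levels of their genes differed between the libraries by unequal amounts, with ratios of 3.43 for Rarb and 0.48 for Cyp26a1.

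Regulators of the forebrain were lower in Tet3 KO, and those of the midbrain went both ways. Of 20 forebrain genes 7 were compared, and 4 were lower and 0 higher, with a median ratio of -1.39. Otx2, needed for forebrain and midbrain, was at 7.10 RPKM in Tet3 KO and 26.3 RPKM in WT, and Lhx2, a forebrain and eye regulator, at 2.16 RPKM in Tet3 KO and 16.1 RPKM in WT. Barhl2 and Eomes were the other genes called lower, and the members not compared were under 1 RPKM in both libraries. In the midbrain list 5 of 14 members were lower and 3 higher. Tal2, a midbrain regulator of GABAergic neurons, had 2.56 RPKM in Tet3 KO and 14.7 RPKM in WT, and Lmx1a, of floor plate and roof plate, had 3.29 RPKM in Tet3 KO and 13.6 RPKM in WT. En2 was at 4.37 RPKM in Tet3 KO and 9.82 RPKM in WT, while En1, its close relative at the midbrain-hindbrain boundary, differed little with 4.01 RPKM in Tet3 KO and 3.65 RPKM in WT. Of 6 hindbrain regulators 1 was higher and 0 lower, Phox2a with 2.44 RPKM in Tet3 KO and 0.77 RPKM in WT.

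General markers of neural progenitors and young neurons were much alike in both libraries. Of 22 progenitor genes 3 were higher and 1 lower, with a median ratio of 0.19. Sox2 had 49.3 RPKM in Tet3 KO and 33.6 RPKM in WT, Pax6 had 29.6 RPKM in Tet3 KO and 23.8 RPKM in WT, and the intermediate filament gene Nes had 80.6 RPKM in Tet3 KO and 73.3 RPKM in WT. The exceptions included Zic1, of the dorsal neural tube and somites, with 17.1 RPKM in Tet3 KO and 2.81 RPKM in WT. Among 22 proneural and early neuron genes 4 were higher and 0 lower (median 0.06). All 4 are proneural transcription factors that commit progenitors to neurons: Neurog1 (24.7 RPKM in Tet3 KO, 7.71 RPKM in WT), Neurog2 (20.9 RPKM in Tet3 KO, 6.31 RPKM in WT), Neurog3 and Neurod4. Genes of the neurons themselves were level. The neuronal tubulin gene Tubb3 stood at 599.4 RPKM in Tet3 KO and 615.7 RPKM in WT, Dcx at 131.5 RPKM in Tet3 KO and 166.6 RPKM in WT, and the light neurofilament gene Nefl at 291.0 RPKM in Tet3 KO and 258.2 RPKM in WT.

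Genes that mark particular kinds of neuron differed more. Of 12 motor neuron genes 10 were higher and 0 lower, with a median ratio of 1.84, both before and after the GC adjustment. Lhx3, which with Isl1 specifies spinal motor neurons, had 6.00 RPKM in Tet3 KO and 0.12 RPKM in WT. Its relative Lhx4 had 20.2 RPKM in Tet3 KO and 2.99 RPKM in WT, and Mnx1, another motor neuron regulator, 4.52 RPKM in Tet3 KO and 0.36 RPKM in WT. Genes for the transmitter acetylcholine were low but went the same way. Slc18a3, the vesicular acetylcholine transporter, was at 7.80 RPKM in Tet3 KO and 0.95 RPKM in WT, and Chat, which makes acetylcholine, at 1.24 RPKM in Tet3 KO and 0.06 RPKM in WT. The 2 genes of the list that were not called, Nefl and Nefm, are filaments of most neurons.

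Genes of ventral progenitor domains were also higher. Of 9 ventral neural tube genes compared 8 were higher and 0 lower, with a median ratio of 1.37 (1.04 and 6 higher after the GC adjustment). Shh, the ventral organiser signal, had 13.3 RPKM in Tet3 KO and 4.98 RPKM in WT. Nkx6-1, of motor neuron progenitors, had 24.2 RPKM in Tet3 KO and 6.18 RPKM in WT. Olig2, the defining motor neuron progenitor factor, was not called, with 1.31 RPKM in Tet3 KO and 0.47 RPKM in WT. Dorsal progenitor genes went both ways, 3 higher and 2 lower of 9, with Dbx2 (4.67 RPKM in Tet3 KO, 1.05 RPKM in WT), Olig3 (3.67 RPKM in Tet3 KO, 1.19 RPKM in WT) and Wnt4 higher and Pax3 (7.25 RPKM in Tet3 KO, 18.1 RPKM in WT) and Gsx1 (2.53 RPKM in Tet3 KO, 9.78 RPKM in WT) lower.

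Interneuron classes of the spinal cord split as well. Among 16 genes 6 were higher and 3 lower, with a median ratio of 0.90. Evx1 of V0 neurons had 5.85 RPKM in Tet3 KO and 0.76 RPKM in WT. The genes that were lower mark dorsal or sensory neurons: Lmx1b (4.87 RPKM in Tet3 KO, 12.1 RPKM in WT), Pou4f2 (2.28 RPKM in Tet3 KO, 7.01 RPKM in WT) and Tlx1 (1.35 RPKM in Tet3 KO, 8.28 RPKM in WT). Synapse and transmitter genes were mostly level, 3 higher and 2 lower of 22, beside 8.49% higher and 1.98% lower among all genes compared. The higher ones serve monoamine transmitters: Ddc with 9.23 RPKM in Tet3 KO and 2.19 RPKM in WT, Slc18a2 with 5.17 RPKM in Tet3 KO and 1.71 RPKM in WT, and Th with 2.45 RPKM in Tet3 KO and 0.95 RPKM in WT. The ratio of Th was 1.02, and 0.74 after the GC adjustment, which is below the call. Slc17a6, the vesicular glutamate transporter of brainstem and spinal neurons, was lower with 5.48 RPKM in Tet3 KO and 19.4 RPKM in WT, as was Gpm6a, a neuronal membrane protein, with 50.1 RPKM in Tet3 KO and 203.1 RPKM in WT. Axon guidance genes were higher in 6 of 25 cases and lower in 0, and the secreted ligands led, with Slit1 at 24.6 RPKM in Tet3 KO and 4.64 RPKM in WT and Ntn1 at 79.9 RPKM in Tet3 KO and 32.6 RPKM in WT. In the crest and glia list, 4 of 10 were higher and 2 lower, with a median ratio of 0.83. The higher ones were Ets1, Ngfr, Twist1 and Foxd3, with ratios of 2.32, 2.31, 1.96 and 1.27. The lower ones, Tcfap2a and Tcfap2b, are AP-2 factors of crest and dorsal neurons, and Tcfap2b had 3.25 RPKM in Tet3 KO and 25.1 RPKM in WT.

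**Figure D4:**
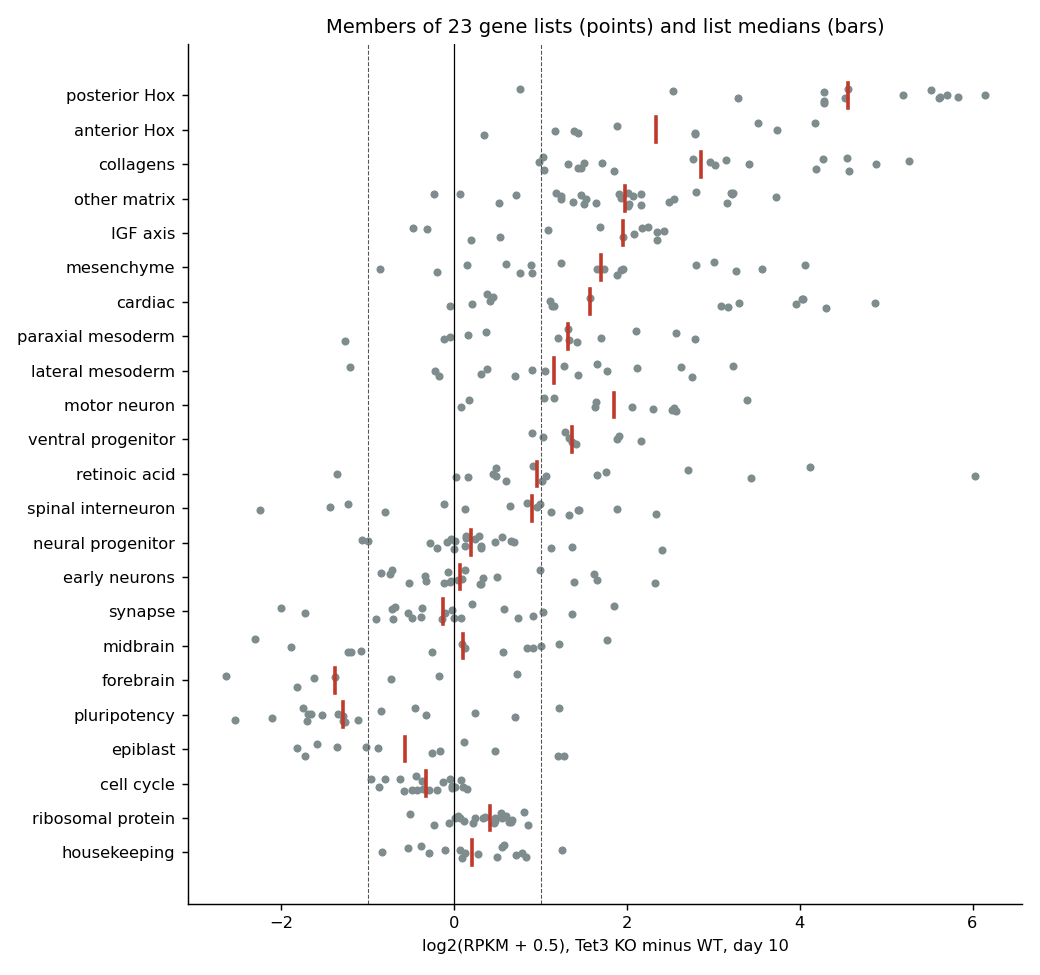
Log2 ratios (Tet3 KO minus WT, day 10, horizontal) of the members of 23 gene lists, 1 point a gene that reached 1 RPKM in either library, with list medians as red bars and dashed lines at 2-fold. Hox and collagen medians lie farthest right, forebrain and pluripotency medians left of the lower line, and progenitor, early neuron and housekeeping medians near 0.

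Heart and muscle structural genes formed a second group that was high in Tet3 KO. Of 17 cardiac genes compared 12 were higher and 0 lower, with a median ratio of 1.57. The sarcomere genes led. Myl7, the atrial light chain, had 35.9 RPKM in Tet3 KO and 0.75 RPKM in WT, and Actc1, cardiac actin, had 54.5 RPKM in Tet3 KO and 2.28 RPKM in WT. Tnnt2, cardiac troponin T, had 24.4 RPKM in Tet3 KO and 1.03 RPKM in WT. Among the transcription factors of the list, Isl1 (7.20 RPKM in Tet3 KO, 2.96 RPKM in WT), which motor neurons also use, and Mef2c (1.60 RPKM in Tet3 KO, 0.46 RPKM in WT) were higher. The others compared were not called, among them Gata4 at 3.26 RPKM in Tet3 KO and 2.26 RPKM in WT and Hand2 at 2.62 RPKM in Tet3 KO and 1.89 RPKM in WT. Of skeletal muscle genes, Myog, a differentiation factor, was at 2.96 RPKM in Tet3 KO and listed at 0 in WT, while the muscle precursor genes Lbx1 (4.55 RPKM in Tet3 KO, 4.99 RPKM in WT) and Met (2.94 RPKM in Tet3 KO, 2.58 RPKM in WT) were not called. The smooth muscle list had 7 of 12 members higher and 0 lower (median 1.13, 0.98 after the GC adjustment), among them Acta2 with 27.4 RPKM in Tet3 KO and 11.9 RPKM in WT. Tagln, also of smooth muscle, was not called, with 2.13 RPKM in Tet3 KO and 2.88 RPKM in WT.

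Regulators of mesoderm were mostly higher but at low levels. In the paraxial mesoderm and muscle list 8 of 13 were higher and 1 lower (median 1.32), and the higher ones were all under 5 RPKM in both libraries. With a filter of 5 RPKM the median of this list was -0.66. Meox1, of somites, had 4.22 RPKM in Tet3 KO and 0.60 RPKM in WT, and Pax1, of the sclerotome, had 1.56 RPKM in Tet3 KO and 0.27 RPKM in WT. In the lateral plate list 9 of 16 were higher and 1 lower (median 1.16), with Osr1 at 3.14 RPKM in Tet3 KO and 0.04 RPKM in WT. The early mesoderm list had 8 of 16 higher and 3 lower. Foxc1, of paraxial mesoderm, had 9.07 RPKM in Tet3 KO and 0.66 RPKM in WT, whereas T, the defining gene of the primitive streak, had 2.19 RPKM in Tet3 KO and 7.52 RPKM in WT. Endothelial genes were higher in 5 of 11 cases and lower in 0, with Cldn5 at 3.23 RPKM in Tet3 KO and 0.12 RPKM in WT. Blood genes showed no call in 6, and the embryonic globin Hbb-y was at 11.8 RPKM in Tet3 KO and 9.52 RPKM in WT.

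Extracellular matrix genes differed across nearly the whole list. The collagen gene Col6a3 was not matched in the table. Of 20 collagen genes compared 19 were higher and 0 lower, with a median ratio of 2.86, and their summed level was 1010.3 RPKM in Tet3 KO and 170.0 RPKM in WT. Fibrillar collagens of connective tissue stood out. Col3a1 had 381.8 RPKM in Tet3 KO and 20.5 RPKM in WT, and Col1a1 had 67.6 RPKM in Tet3 KO and 1.27 RPKM in WT. Col6a1, of microfibrils, had 27.2 RPKM in Tet3 KO and 0.69 RPKM in WT. Basement membrane collagens, which WT aggregates also make, differed least, with Col4a1 at 140.9 RPKM in Tet3 KO and 68.8 RPKM in WT.

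The proteins that modify and assemble collagen went with it. In the list of collagen processing and other matrix 24 of 28 members were higher and 0 lower (median 1.97). Serpinh1, the collagen chaperone, had 309.5 RPKM in Tet3 KO and 82.3 RPKM in WT, and the prolyl hydroxylase P4ha2 had 18.5 RPKM in Tet3 KO and 4.50 RPKM in WT. Small leucine-rich proteoglycans of fibroblasts were also higher, with Lum at 48.1 RPKM in Tet3 KO and 4.75 RPKM in WT and Dcn at 23.5 RPKM in Tet3 KO and 1.31 RPKM in WT. Vtn, vitronectin, reached 174.9 RPKM in Tet3 KO and 18.3 RPKM in WT. Mesenchyme genes were higher in 11 of 18 cases and lower in 0 (median 1.70), including the receptor Pdgfrb with 11.5 RPKM in Tet3 KO and 0.75 RPKM in WT and the fibroblast protease Fap with 6.58 RPKM in Tet3 KO and 0.10 RPKM in WT. In the cartilage and bone list 5 of 15 genes were compared and none was called, and Sox9 was level at 16.8 RPKM in Tet3 KO and 15.6 RPKM in WT. Collagens that cartilage also uses were counted in the collagen list instead and were higher. Their ratios were 1.43 for Col2a1, 3.02 for Col9a1, 1.85 for Col9a2 and 2.96 for Col11a1.

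Growth factor systems of mesenchyme were higher too. In the insulin-like growth factor axis 9 of 13 members were higher and 0 lower, with a median ratio of 1.95. The ligand gene Igf2 had 308.7 RPKM in Tet3 KO and 60.4 RPKM in WT. Its binding proteins followed, with Igfbp5 at 269.5 RPKM in Tet3 KO and 49.5 RPKM in WT and Igfbp4 at 122.6 RPKM in Tet3 KO and 25.5 RPKM in WT, whereas the receptor gene Igf1r was level at 7.87 RPKM in Tet3 KO and 6.84 RPKM in WT. Of 25 BMP and TGF-beta genes 10 were higher and 0 lower (median 0.78). Among the ligands Bmp4 had 6.60 RPKM in Tet3 KO and 1.02 RPKM in WT, and among response genes Id1 had 27.3 RPKM in Tet3 KO and 4.54 RPKM in WT and Id3 77.8 RPKM in Tet3 KO and 18.7 RPKM in WT. Inhibitors of BMP were not called, among them Nog with 2.14 RPKM in Tet3 KO and 2.01 RPKM in WT. In the Notch pathway 4 of 18 were higher and 0 lower, led by Heyl, a target expressed in vascular and muscle tissue, with 11.7 RPKM in Tet3 KO and 0.54 RPKM in WT.

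Genes of the undifferentiated state were lower in Tet3 KO. Of 18 pluripotency genes compared 12 were lower and 1 higher, with a median ratio of -1.29, against 1.98% lower among all genes. Pou5f1, which encodes Oct4, had 3.06 RPKM in Tet3 KO and 20.3 RPKM in WT, with a counting interval from -3.47 to -2.03. Lin28a, a translational regulator of stem cells, had 13.8 RPKM in Tet3 KO and 47.6 RPKM in WT, and Dppa5a had 4.01 RPKM in Tet3 KO and 19 RPKM in WT. The one that was higher was Esrrb, with 7.22 RPKM in Tet3 KO and 2.84 RPKM in WT. Nanog was under 1 RPKM in both libraries, with 0.27 RPKM in Tet3 KO and 0.19 RPKM in WT. In the epiblast list 5 of 12 were lower and 2 higher, with Fgf5 at 0.33 RPKM in Tet3 KO and 2.0 RPKM in WT and Cdh1, E-cadherin, at 6.36 RPKM in Tet3 KO and 17.1 RPKM in WT.

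Among 19 genes that write, erase or read DNA methylation, 2 were higher and 2 lower (median 0.29). The lower ones belong to de novo methylation. Dnmt3b had 3.74 RPKM in Tet3 KO and 13.6 RPKM in WT, with a counting interval from -2.11 to -1.61, and its cofactor Dnmt3l had 0.58 RPKM in Tet3 KO and 2.33 RPKM in WT. Dnmt3a was not called, with 22.04 RPKM in Tet3 KO and 15.3 RPKM in WT, and neither was the maintenance enzyme Dnmt1, with 36.4 RPKM in Tet3 KO and 32.9 RPKM in WT. Germline genes, many of which are silenced by promoter methylation, were mostly near 0. Of 21 matched members 3 were compared and 2 were lower, while Rhox5 was not matched, and Rhox6 was lower with 1.27 RPKM in Tet3 KO and 5.80 RPKM in WT. Polycomb genes showed no call in 18, with Ezh2 at 83.3 RPKM in Tet3 KO and 111.9 RPKM in WT. Of 27 imprinted genes 7 were higher and 3 lower. Igf2 and H19, which share an imprinted domain, were both higher, H19 with 61.8 RPKM in Tet3 KO and 11.8 RPKM in WT, and Dlk1 had 48.6 RPKM in Tet3 KO and 5.34 RPKM in WT. Meg3, the partner of Dlk1 from the other parental chromosome, was not called, with 9.25 RPKM in Tet3 KO and 14.2 RPKM in WT.

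TET enzymes act on CpG, and the promoters of the genes described differ widely in it. The 250 bases before the start of 3 genes that were higher and 1 that was lower are printed with each CpG in capitals (RefSeq, GRCm38.p6), to show this range. Aldh1a2, on chr9:71215539-71215788, plus strand, held 40 CpG. Hoxb8, at 43.8 RPKM in Tet3 KO and 0.40 RPKM in WT, lies on chr11:96281655-96281904, plus strand, and held 12. Col3a1, on chr1:45311288-45311537, plus strand, held 0. Dnmt3b, on chr2:153649199-153649448, plus strand, held 21.
Aldh1a2: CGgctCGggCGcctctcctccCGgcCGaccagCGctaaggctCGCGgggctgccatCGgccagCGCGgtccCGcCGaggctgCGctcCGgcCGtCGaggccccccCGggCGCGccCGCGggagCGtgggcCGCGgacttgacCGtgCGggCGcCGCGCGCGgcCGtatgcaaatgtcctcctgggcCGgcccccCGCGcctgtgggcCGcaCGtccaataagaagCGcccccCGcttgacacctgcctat
Hoxb8: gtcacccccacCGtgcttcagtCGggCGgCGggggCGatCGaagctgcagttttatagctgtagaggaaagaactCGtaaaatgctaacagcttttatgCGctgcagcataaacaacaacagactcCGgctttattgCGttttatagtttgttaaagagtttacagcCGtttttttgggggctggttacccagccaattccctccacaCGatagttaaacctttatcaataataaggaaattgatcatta
Col3a1: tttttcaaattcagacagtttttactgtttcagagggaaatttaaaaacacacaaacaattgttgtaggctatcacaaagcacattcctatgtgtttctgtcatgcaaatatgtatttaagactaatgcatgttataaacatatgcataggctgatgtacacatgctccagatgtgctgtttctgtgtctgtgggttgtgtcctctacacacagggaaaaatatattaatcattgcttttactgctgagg
Dnmt3b: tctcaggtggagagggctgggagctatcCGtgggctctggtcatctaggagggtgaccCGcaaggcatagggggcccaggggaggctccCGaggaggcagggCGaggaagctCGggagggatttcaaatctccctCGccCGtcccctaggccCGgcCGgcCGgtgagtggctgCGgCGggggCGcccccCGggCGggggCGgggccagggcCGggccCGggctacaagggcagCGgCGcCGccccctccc
Methylation was not measured here. Windows were at hand for 74.2% of the genes that were higher and 60.2% of those that were lower, under the 80% needed, so a comparison of CpG content between the sets is void and no value is given.

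Epithelial, endodermal and trophoblast markers gave little or went the other way. Of 14 surface ectoderm and simple epithelium genes 2 were lower and 0 higher (median -0.47), and Krt8 had 25.3 RPKM in Tet3 KO and 52.0 RPKM in WT. In the endoderm list 1 of 10 was higher and 1 lower, with Foxa2 at 4.51 RPKM in Tet3 KO and 1.99 RPKM in WT. Extraembryonic endoderm genes were higher in 3 of 16 cases and lower in 1, and Afp was not called, with 23.8 RPKM in Tet3 KO and 36.2 RPKM in WT. Trophoblast genes were lower in 3 of 7 cases and higher in 0. The placental protease gene Ctsq was listed at 0 in Tet3 KO and at 4.45 RPKM in WT, and Tpbpa was listed at 0 in Tet3 KO and at 1.41 RPKM in WT. Placental genes outside the lists were among the 15 lowest ratios of all, Ctsj with 0.22 RPKM in Tet3 KO and 14.1 RPKM in WT and Prl7d1 listed at 0 in Tet3 KO and at 7.06 RPKM in WT. A value of 0 can be a failed estimate, since Hmgcs1, a gene of every cell's sterol synthesis, is listed at 0 in all 10 libraries. Placode and cilia genes were higher in 4 of 9 cases and lower in 0, with Foxj1, the regulator of motile cilia, at 3.69 RPKM in Tet3 KO and 1.3 RPKM in WT.

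Signalling pathways with patterning roles differed in part, beside 8.49% higher and 1.98% lower among all genes compared. Of 10 Wnt ligands compared 4 were higher and 0 lower (median 0.64), with Wnt4 at 8.97 RPKM in Tet3 KO and 1.12 RPKM in WT and Wnt11 at 3.74 RPKM in Tet3 KO and 0.28 RPKM in WT. Wnt antagonists and R-spondins gave 3 higher and 1 lower of 11, and Frzb, a secreted antagonist, had 22.4 RPKM in Tet3 KO and 7.92 RPKM in WT. Feedback targets of canonical Wnt signalling gave 2 higher and 3 lower of 15, and 0 higher and 3 lower after the GC adjustment. Axin2, the standard reporter, had 10.1 RPKM in Tet3 KO and 4.52 RPKM in WT, whereas Lef1 had 5.02 RPKM in Tet3 KO and 10.7 RPKM in WT. The posterior list of Cdx and related genes gave 3 higher and 2 lower of 7, and the Cdx genes, which switch on Hox clusters, were all under 1 RPKM in Tet3 KO. In the Hedgehog pathway the ligand Shh alone was called of 13 genes, near the share among all genes. The target Ptch1 had 31.5 RPKM in Tet3 KO and 17.5 RPKM in WT. FGF genes gave 3 higher and 2 lower of 18, with Fgfr3 at 33.2 RPKM in Tet3 KO and 15 RPKM in WT and Etv4, a response gene, at 1.92 RPKM in Tet3 KO and 4.41 RPKM in WT.

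General cell functions were level in some lists and not in others, beside 8.49% higher and 1.98% lower among all genes compared. Cell cycle genes gave no call in 20, but 4 alone had a ratio above 0 and the median was -0.32, with Pcna at 228.9 RPKM in Tet3 KO and 446.8 RPKM in WT. Hypoxia and glycolysis genes were higher in 8 of 24 cases and lower in 0 (median 0.76), including Vegfa with 19.8 RPKM in Tet3 KO and 6.68 RPKM in WT and Pdk1 with 21.99 RPKM in Tet3 KO and 9.85 RPKM in WT. Immediate early genes were higher in 4 of 10 cases and lower in 0, with Egr1 at 8.99 RPKM in Tet3 KO and 2.78 RPKM in WT, while Fos was level at 2.49 RPKM in Tet3 KO and 2.52 RPKM in WT. Interferon response genes gave 2 higher and 1 lower of 12, and Ifitm2 had 57.9 RPKM in Tet3 KO and 11.1 RPKM in WT. No gene was called among 18 of p53 and stress, 19 of cholesterol synthesis, 20 of the respiratory chain and 22 ribosomal proteins, whose medians were 0.14, -0.06, 0.17 and 0.41. Of 16 housekeeping genes 1 was called, Gusb, with 6.66 RPKM in Tet3 KO and 2.51 RPKM in WT. Actb had 1345.7 RPKM in Tet3 KO and 916.4 RPKM in WT, and Gapdh had 254.5 RPKM in Tet3 KO and 368.4 RPKM in WT.

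The extremes of the whole comparison repeated these groups. Of the 15 highest ratios, 14 were Hox, collagen, Aldh1a2 or Myl7, and the other was Islr, a mesenchymal surface protein, with 32.7 RPKM in Tet3 KO and 0.75 RPKM in WT. Among the 15 lowest, Lhx9, a regulator of dorsal neurons, had 0.48 RPKM in Tet3 KO and 5.82 RPKM in WT, and Trh, a neuropeptide gene, had 1.92 RPKM in Tet3 KO and 15.2 RPKM in WT. Another 8 of the 15 lowest were symbols of small RNAs, whose short length leaves few reads behind each value. Such symbols made up 45 of the 246 genes that were lower and 38 of the 1057 that were higher, from 135 compared. Counting error was also large at the low end: the 95% interval of the read ratio left out equality for 1011 of 1052 genes that were higher and for 196 of 242 that were lower. Genes at the edge of the call differed by little, with Kcnip1 just inside at 3.14 RPKM in Tet3 KO and 1.32 RPKM in WT and Tmem205 just outside at 12.6 RPKM in Tet3 KO and 6.05 RPKM in WT. At the lower edge Mlx lay inside with 34.0 RPKM in Tet3 KO and 68.7 RPKM in WT, and the progenitor gene Sox1 outside with 10.2 RPKM in Tet3 KO and 20.8 RPKM in WT.

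The day-6 libraries show which of these differences were present earlier. On day 6, 608 of 11586 genes were higher in Tet3 KO, 5.25%, and 262 lower, 2.26%. Of the 1057 genes higher on day 10, 255 were also higher on day 6, 12 were lower, and 332 did not reach the filter. Between day 6 and day 10 the same genes moved by a median of 1.08 (log2, day 10 minus day 6) in Tet3 KO and 0.09 in WT; the larger of these changes was in Tet3 KO. For the genes lower on day 10 the same medians were 0.00 in Tet3 KO and 0.78 in WT. These values share the day-10 libraries with the calls and are a description. Hox and retinoic acid genes were already higher on day 6. Aldh1a2 stood at 74.2 RPKM in Tet3 KO and 0.39 RPKM in WT on day 6, and Rarb at 13.74 RPKM in Tet3 KO and 1.73 RPKM in WT.

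Collagen and motor neuron genes were higher mainly on day 10. Collagens had a median ratio of 2.86 on day 10 (20 compared) and 0.32 on day 6 (14 compared, 4 higher and 0 lower). Motor neuron genes had 1.84 on day 10 (12 compared) and 0.11 on day 6 (6 compared, 2 higher and 0 lower). The filter kept different members on each day, so the medians of a list are not of the same genes. Col1a1 had 67.6 RPKM on day 10 and 1.5 RPKM on day 6 in Tet3 KO, against 1.27 RPKM and 1.13 RPKM in WT on the same days. Lhx3 was at 0.04 RPKM in both genotypes on day 6. Mesoderm lists had somewhat larger medians on day 6. The median ratio of the paraxial list was 1.32 on day 10 (13 compared) and 1.82 on day 6 (14 compared). That of the lateral plate list was 1.16 on day 10 (16 compared) and 1.57 on day 6 (11 compared), though more lateral plate genes were higher on day 10 (9) than on day 6 (7). The genes with the lowest day-10 minus day-6 ratios of all, named for that reason, included some of these. Meox1 had 4.22 RPKM on day 10 and 161.6 RPKM on day 6 in Tet3 KO, against 0.60 RPKM and 0.27 RPKM in WT, and Tcf15, also of somites, 1.08 RPKM on day 10 and 44.9 RPKM on day 6 in Tet3 KO, against 0.19 RPKM and 0.11 RPKM in WT. Cdx2 differed in opposite directions on the days, with 0.34 RPKM in Tet3 KO and 1.89 RPKM in WT on day 10, and 20.4 RPKM in Tet3 KO and 0.82 RPKM in WT on day 6. Of 16 pluripotency genes compared on day 6, 3 were lower and 0 higher, with a median ratio of -0.40, against -1.29 on day 10. Pou5f1 had 36.6 RPKM in Tet3 KO and 35.8 RPKM in WT on day 6, and the methyltransferase gene Dnmt3b had 38.2 RPKM in Tet3 KO and 40.7 RPKM in WT. The midbrain gene Tal2 was low in Tet3 KO on both days, with 1.27 RPKM in Tet3 KO and 18.9 RPKM in WT on day 6.

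**Figure D5:**
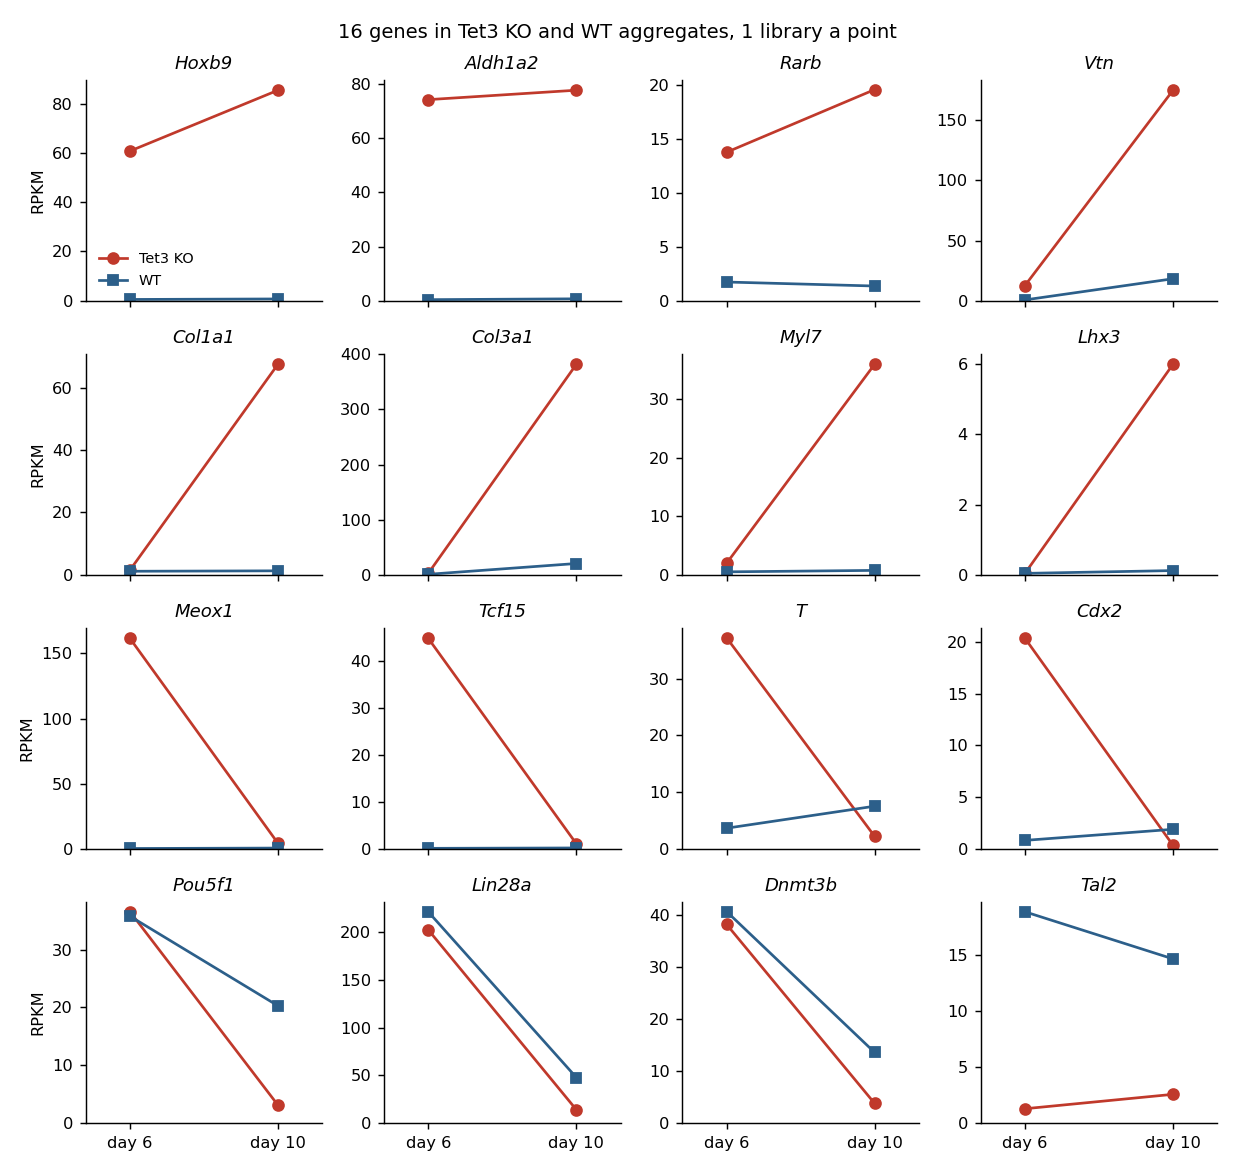
RPKM of 16 genes on day 6 and day 10 (horizontal) in Tet3 KO (red circles) and WT (blue squares), 1 library a point, each panel with its own linear axis from 0. The first row holds genes high in Tet3 KO on day 10 that were higher on day 6 too. The next row holds genes far higher on day 10 than day 6 in Tet3 KO. The third holds posterior and mesoderm genes far higher on day 6 than day 10 in Tet3 KO, and the last genes lower in Tet3 KO on day 10.

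Tet3 KO aggregates given Dkk were sequenced once on day 10. Their values are set side by side with the same Tet3 KO and WT libraries, with no separate comparison, since any such comparison would share a library with the one above. On day 10 Hoxb9 stood at 85.5 RPKM in Tet3 KO, 0.46 RPKM in Tet3 KO with Dkk and 0.72 RPKM in WT. Aldh1a2 stood at 77.7 RPKM in Tet3 KO, 2.15 RPKM in Tet3 KO with Dkk and 0.70 RPKM in WT. Lhx3 stood at 6.00 RPKM in Tet3 KO, 0.18 RPKM in Tet3 KO with Dkk and 0.12 RPKM in WT. Matrix and cardiac genes lay between, with Col3a1 at 381.8 RPKM in Tet3 KO, 37.2 RPKM in Tet3 KO with Dkk and 20.5 RPKM in WT. Myl7 stood at 35.9 RPKM in Tet3 KO, 14.3 RPKM in Tet3 KO with Dkk and 0.75 RPKM in WT. Otx2 and Tal2 were highest with Dkk. Otx2 stood at 7.10 RPKM in Tet3 KO, 73.6 RPKM in Tet3 KO with Dkk and 26.3 RPKM in WT, and Tal2 at 2.56 RPKM in Tet3 KO, 41.2 RPKM in Tet3 KO with Dkk and 14.7 RPKM in WT. Pou5f1 stood at 3.06 RPKM in Tet3 KO, 6.55 RPKM in Tet3 KO with Dkk and 20.3 RPKM in WT. By GC content, the median of Tet3 KO with Dkk over WT was -0.33 in the least and 0.41 in the most GC-rich group, a comparison that uses the same WT library as the trend above and is no separate observation of it.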

How the data were processed

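A separate RNA library was made for every condition and day, 10 in all, from mouse ES cells. The labels' protocols give total RNA as the input and a SOLiD total RNA kit for library construction. The authors deposited a single table of RPKM values covering 21937 gene symbols. HTSeq and the build mm9 are credited to the submitters' processing notes. Which aligner, annotation and strand setting were used is not given in the sources used, so values of overlapping, antisense and near-identical genes are uncertain.

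From the deposited RPKM values, log2(RPKM + 0.5) was taken and WT subtracted from Tet3 KO, for genes at 1 RPKM or more in either library. The call was 2-fold. There is 1 library a group, so no count model and no test was run. Depth was estimated from the spacing of low RPKM values: 69.0% to 75.3% of them came within 0.15 read of a whole number at the chosen totals, which were chosen for that, against 24.5% to 42.5% at wrong totals. Clopper-Pearson 95% intervals of the ratio of these estimated reads cover counting error only. Transcript lengths and GC content came from GENCODE vM21, matched for 98.3% and 99.1% of genes. Promoter windows came from RefSeq GRCm38.p6, and no coordinate was converted.

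The comparison and the 55 gene lists were chosen with earlier results of these data known. From the lists any member could be named. Outside them, the rule named the 15 highest and 15 lowest ratios, 10 genes at each end of the day-10 minus day-6 ratio, and 3 on each side of the threshold. Alternatives changed the pseudocount, the filter and the scaling. Python 3.11.15, numpy 2.4.6, pandas 2.3.3, scipy 1.17.1 and matplotlib 3.10.9 were used. Values of some list members are not reported here.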

Additional observations from a re-analysis of the deposited data

Results flagged for a closer look

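Of 11267 genes compared on both days, 36 differed at least 2-fold in opposite directions on day 10 and day 6. In 24 of them Tet3 KO was lower on day 10 and higher on day 6, and in 12 the reverse. With 1 library a group the difference between the days was not tested, and neither was its cause. The 8 that belong to a gene list are given here, each with the day-10 ratio minus the day-6 ratio (log2, Tet3 KO over WT on each day).

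Cdx2, a posterior regulator, gave -5.49, with RPKM values for both days given above. T, of the primitive streak, gave -4.76, with 37.2 RPKM in Tet3 KO and 3.64 RPKM in WT on day 6. Ifitm1, an interferon-inducible membrane protein gene also active in early mesoderm, gave -4.75, with 1.96 RPKM in Tet3 KO and 4.71 RPKM in WT on day 10 and 59.1 RPKM in Tet3 KO and 4.2 RPKM in WT on day 6. The epithelial genes Krt8 and Cdh1 gave -3.06 and -2.39. Krt8 had 91.9 RPKM in Tet3 KO and 22.1 RPKM in WT on day 6, and Cdh1 had 23.9 RPKM in Tet3 KO and 11.5 RPKM in WT on day 6. Lmx1a gave -3.12, with 1.56 RPKM in Tet3 KO and 0.38 RPKM in WT on day 6. The imprinted gene Phlda2 gave -2.30, with 0.37 RPKM in Tet3 KO and 1.31 RPKM in WT on day 10 and 5.38 RPKM in Tet3 KO and 1.99 RPKM in WT on day 6. Pax8, of kidney and the midbrain-hindbrain boundary, was the one gene with the reverse pattern and gave 2.88, with 3.36 RPKM in Tet3 KO and 0.63 RPKM in WT on day 10 and 0.31 RPKM in Tet3 KO and 1.24 RPKM in WT on day 6.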

How the results depend on the processing

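A filter of 5 RPKM in either library left 600 genes called higher and 111 called lower in the day-10 comparison, against 290 and 121 in that of day 6, since fewer genes were compared. Under the other alternatives the counts stayed within 1.5 times, at 838 to 1262 higher and 182 to 333 lower on day 10. The median of the paraxial mesoderm list was -0.66 with the stricter filter, which drops its low genes, and 1.32 without it. With it, other medians also changed sign: Cdx and posterior regulators 1.18 (-0.26 as reported), midbrain -1.08 (0.10), placode and cilia -0.09 (0.99), endoderm -0.35 (0.11), dorsal progenitors -0.13 (0.17) and Hedgehog -0.05 (0.13). Hindbrain was 0.08 with no filter (-0.08), early neurons -0.03 with median-ratio scaling (0.06), and midbrain -0.04 with the GC adjustment. None of 58 named genes changed sign under the alternatives run on them, but many were named for extreme ratios, where that is unlikely. Their call changed, or their ratio moved by more than 1.5-fold, for 34 of 58 with a pseudocount of 0.1. The same held for 30 with a pseudocount of 1, for 6 with median-ratio scaling and for 4 with the GC adjustment. It held for 24 with each library scaled to a common sum larger than its own. That scaling raised all values above 0 and left the pseudocount unchanged, so the pseudocount weighed less. The effect of equal library sums alone was not tested. Scaling moved the median of all genes by at most 0.09 (log2, downward). The share of calls that were higher was 75.1% to 84.4%, against 81.1% as reported. The planned comparison of promoter CpG and motif content between gene sets was not run, because too few genes had a window. No paired analysis was possible because each group has 1 library, and with none left no replicate can be left out. Genotype, line, culture and library preparation cannot be told apart.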

Other observations

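Tet3 KO aggregates on day 10 also differed in lipid transfer and neuropeptide genes that belong to no list and were the extremes of the day-10 minus day-6 ratio or of the day-10 ratio. Pltp, which encodes phospholipid transfer protein, had 81.0 RPKM in Tet3 KO and 8.52 RPKM in WT on day 10, and 14.1 RPKM in Tet3 KO and 27.5 RPKM in WT on day 6. Trh, which encodes thyrotropin-releasing hormone, was level on day 6, with 109.7 RPKM in Tet3 KO and 96.1 RPKM in WT. Aplnr, the apelin receptor of early mesoderm and vessels, had 1.03 RPKM in Tet3 KO and 2.39 RPKM in WT on day 10, and 22.7 RPKM in Tet3 KO and 0.63 RPKM in WT on day 6.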
